A study of Bactrocera dorsalis with 16 samples.

Results

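Transcripts of 7 genes of sugar metabolism were followed in females of Bactrocera dorsalis, the oriental fruit fly, a pest of fruit crops. The genes were taken by their identifiers from the deposited table of 13759 genes: a trehalose-phosphate synthase (MSTRG.7927), a trehalose transporter named Tret1-2 homolog (MSTRG.4057), glycogen phosphorylase (MSTRG.2622), a phosphoenolpyruvate carboxykinase-like gene (PEPCK-like, MSTRG.1223), L-lactate dehydrogenase (MSTRG.10109), maltase A1 (MSTRG.7421) and a maltase 2-like gene (MSTRG.8324). Ovary and fat body were each taken from adult females 1, 5, 9 and 13 days after eclosion, with 2 libraries for each tissue and age and 16 in all. The flies were kept at one temperature and light cycle on a diet with yeast extract and sugar, and the labels name no genotype and no treatment. The series text calls the libraries biological replicates but does not say how many females went into each.

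Insects carry sugar in the blood mainly as trehalose. The fat body, an organ with roles like those of the vertebrate liver and adipose tissue, makes trehalose from glucose phosphates and releases it through transporters, and other organs split it back into glucose. Glycogen is the stored form of glucose, phosphoenolpyruvate carboxykinase commits carbon to the synthesis of new glucose or glycerol, lactate dehydrogenase interconverts pyruvate and lactate, and maltases release glucose from small sugars. The growing ovary takes up sugar and yolk, and egg chambers of Drosophila melanogaster store glycogen late in oogenesis.

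Values are FPKM (fragments scaled to transcript length and to the size of the library), so that levels of different genes can be set side by side. FPKM summed to between 290383 and 405928 per library, and 7425 to 9054 genes per library reached at least 1 FPKM. The number of reads per library is unknown, and from low values the relative depth was estimated at 0.857 to 1.10 of that of ovary day 1 replicate 1. The 2 libraries of a group correlated across genes, which are not independent replicates, at r of 0.919 to 0.966. Summed germline markers (4 genes) ran from 420 to 780 FPKM in ovary and from 13.7 to 36.6 FPKM in fat body. The fat body list (17 genes, vitellogenins included) did not set the organs apart at day 1, with 1372 and 2132 FPKM in ovary and 1085 and 1430 FPKM in fat body. The fat cell protein MSTRG.10985, a lipid droplet surface-binding protein, lay at 4.49 to 24.7 FPKM in ovary and 119 to 275 FPKM in fat body. It was singled out from the fat body list, which was planned only as a sum. Muscle markers (35 genes) were present in both organs, at 488 to 6592 FPKM in ovary and 6389 to 17827 FPKM in fat body. Because whole organs were sampled, fewer cells of a type and less RNA per cell cannot be told apart.

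Changes are log2 fold changes of FPKM + 1 with their standard error (SE), from a limma fit over all 16 libraries, and a gene counts as changed at a Benjamini-Hochberg adjusted p under 0.05 over the 10213 genes tested. All 7 genes were among those tested. In the ovary from day 1 to day 5, 1 of the 7 rose and 3 fell, where 7.42% of all tested genes rose and 16.3% fell. From day 5 to day 9 in the ovary, 2 rose and 3 fell, against 13.9% and 24.1% of all genes. From day 9 to day 13 in the ovary limma called 0 of the 7, with 2 at an unadjusted p under 0.05, and 1.63% of all genes rose and 2.59% fell. In the fat body 2 of the 7 fell from day 1 to day 5, where 3.8% of all genes rose and 10.7% fell. From day 5 to day 9 in the fat body 4 rose and 2 fell, against 5.53% and 5.6% of all genes. From day 9 to day 13 in the fat body 3 fell, where 1.73% of all genes rose and 5.42% fell. The step from day 5 to day 9 in fat body thus held the most calls among the 7, although 3 of them were left without fat body day 5 replicate 1 and 3 in a fit to only the groups compared. In the first ovary step 2 of the 4 calls were left without ovary day 5 replicate 2.

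Between the organs, 4 of the 7 were lower in ovary than in fat body at day 1, where 47.6% of all genes were higher and 15.4% lower in ovary. At day 5, 1 was higher and 4 were lower in ovary, against 48.9% and 16.3% of all genes. At day 9, 1 was higher and 6 were lower, against 44.4% and 23.7%, and at day 13, 2 were higher and 5 were lower, against 46% and 21.8%. The median difference of the 7 was -2.01, -2.53, -1.89 and -1.98 at the successive ages. The median of all tested genes was 0.63, 0.64, 0.43 and 0.51. With median-of-ratios scaling the median of all genes moved to -0.00023, -0.024, -0.030 and -0.047, and the share of changed genes that were higher in ovary moved from 75.6% to 49.2%, from 75.0% to 47.7%, from 65.2% to 49.8% and from 67.8% to 49.2%. The 28 differences between the organs for the 7 genes moved by -0.93 to -0.58 under that scaling. The medians of all genes for the age steps were -0.10, -0.15 and 0.014 in ovary and -0.11, -0.054 and -0.073 in fat body. The same scaling moved the share of rising genes among those changed from 31.2% to 43.6% and from 36.6% to 54.1% in the first and second ovary steps, and from 26.1% to 50.2% and from 24.2% to 40.7% in the first and last fat body steps. For the second and last differences of steps it moved from 38.2% to 49.9% and from 68.3% to 53.7%. Age steps that differed between the organs were tested as interactions. They were called for 2 of the 7 genes in the first step, both more positive in ovary, where 4.11% of all genes were called in that direction and 3.85% in the other. In the second step 2 were called more positive and 3 more negative in ovary, against 10% and 16.3% of all genes, and in the last step 3 were called more positive, against 3.76% and 1.74%. Leaving out 1 library gave 0 to 3 calls in the first step, 3 to 5 in the second and 1 to 3 in the last. The third call in the first step was maltase A1 (-4.11), gained without either fat body library of day 13.

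**Figure D1:**
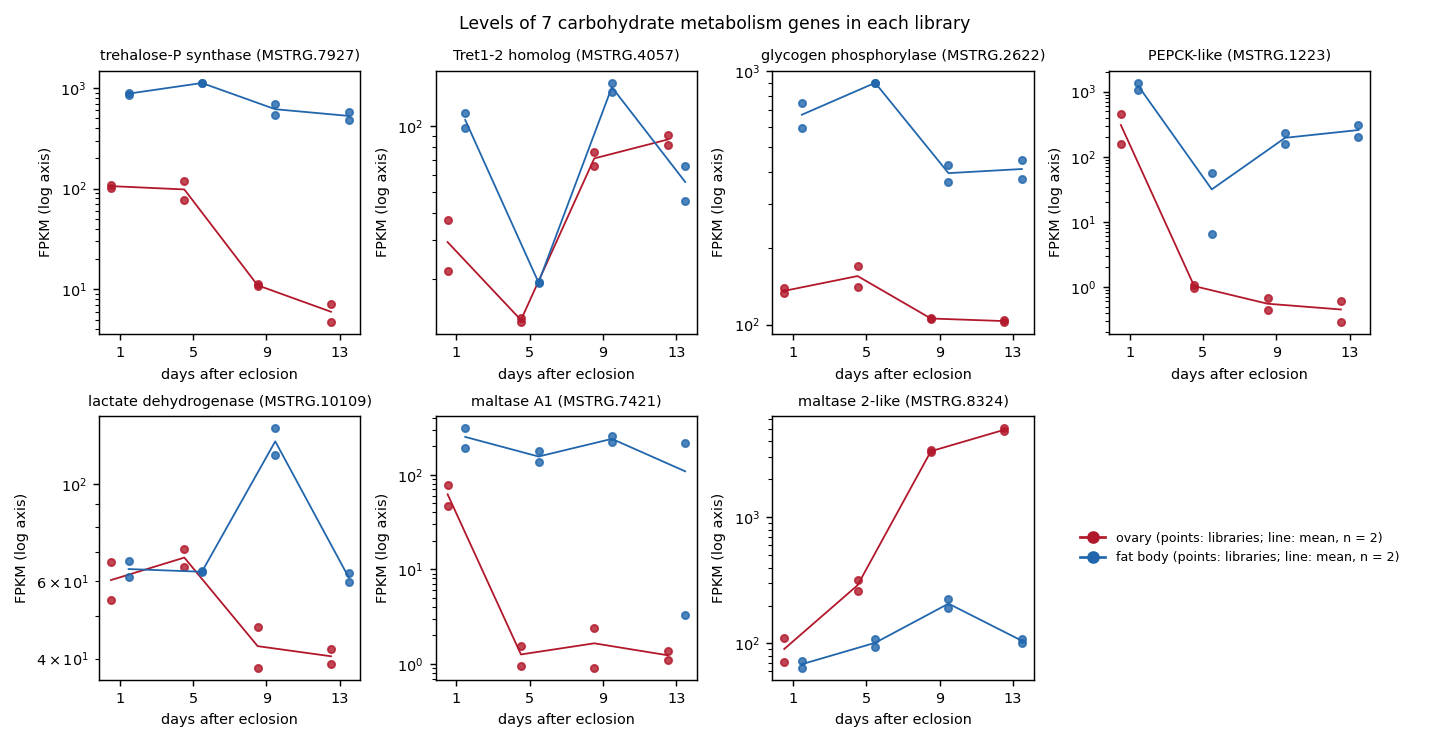
FPKM (log axis) of the 7 genes in each library against days after eclosion, ovary in red and fat body in blue; points are libraries and lines join the means of 2 libraries. Maltase 2-like climbs in ovary from 70.8 to 5079 FPKM, PEPCK-like lies in ovary at 1.09 FPKM or less from day 5 on, and maltase A1 shows 1 fat body library of day 13 far below the other.

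Trehalose-phosphate synthase, which makes the phosphate form of trehalose from UDP-glucose and glucose 6-phosphate, was a transcript of the fat body at each age and fell in the ovary between days 5 and 9. Fat body libraries held 857 and 901 FPKM at day 1, 1110 and 1132 at day 5, 543 and 688 at day 9, and 571 and 485 at day 13. Ovary libraries held 110 and 102 FPKM at day 1, 119 and 77.0 at day 5, 10.7 and 11.2 at day 9, and 4.76 and 7.21 at day 13. Each fat body library was above each ovary library, and the late ovary libraries (days 9 and 13) lay below the early ones with no overlap. Ranked by mean, fat body day 5 came first, then fat body days 1, 9 and 13, then ovary days 1, 5, 9 and 13. Fat body days 9 and 13 overlapped, as did ovary days 1 and 5.

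Trehalose-phosphate synthase was lower in ovary than in fat body at each age, and the difference widened from day 5 to day 9. It was -3.04 ± 0.22 at day 1 (adjusted p = 1.14e-06) and -3.53 ± 0.22 at day 5 (adjusted p = 4.37e-07). It came to -5.68 ± 0.22 at day 9 (adjusted p = 1.90e-08) and -6.26 ± 0.22 at day 13 (adjusted p = 4.16e-09). In the ovary the step from day 5 to day 9 was -3.02 ± 0.22 (adjusted p = 5.00e-06). In the fat body the same step was -0.87 ± 0.22 (adjusted p = 0.0293), and the 2 steps differed by -2.15 ± 0.31 (adjusted p = 0.000811). The first steps (-0.49 ± 0.31, adjusted p = 0.394) and the last steps (-0.58 ± 0.31, adjusted p = 0.337) were not called different. The remaining steps were not called, at -0.14 ± 0.22 and -0.80 ± 0.22 (adjusted p = 0.0746) in ovary and 0.35 ± 0.22 and -0.22 ± 0.22 in fat body. The fat body step was no longer called without fat body day 5 replicate 1 (-0.89), day 5 replicate 2 (-0.86) or day 9 replicate 1 (-0.70), with adjusted p of 0.0146 to 0.140 over the 16 fits that left out 1 library. It was also lost with median-of-ratios scaling (-0.75) and in a fit to only the groups compared (-0.87), with adjusted p of 0.00626 to 0.0868 over the 8 other settings.

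Other transcripts fell in the ovary over the same step. Summed muscle markers went from 6253 and 6592 FPKM at day 5 to 680 and 1241 at day 9 and then to 488 and 563 at day 13. Hemocyte markers (18 genes) went from 218 and 229 to 82.7 and 82.8 FPKM at day 9, and the lipid droplet protein MSTRG.10985 from 24.7 and 21.2 to 6.14 and 4.49 FPKM. Apolipophorins (MSTRG.506), a lipid carrier of the fat body, went from 197 and 178 to 33.8 and 34.2 FPKM. The summed fat body list, which holds yolk proteins, rose from 3402 and 3735 to 16936 and 19777 FPKM. The lipid droplet protein and apolipophorins were singled out from this list, which was planned only as a sum, and its other genes are not given singly. The part of all these transcripts in the fall of trehalose-phosphate synthase was not tested.

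Trehalase (MSTRG.7725), which splits trehalose into glucose and was added after its values were seen, varied little by comparison. It lay at 27.4 to 50.6 FPKM in ovary and 54.1 to 97.6 FPKM in fat body. Trehalose-phosphate synthase stood at 2.94 and 3.74 times the trehalase level in the ovary libraries of day 1, at 0.245 and 0.275 times at day 9, and at 0.154 and 0.233 times at day 13. In fat body the ratio ran from 8.04 to 19.0. Thus the ovary moved from more synthase than trehalase transcript to less, and each fat body library kept more synthase. No other gene in the table carried the synthase's KEGG orthology entry. Over the 16 libraries the genes with the most similar pattern were an esterase B1-like gene (MSTRG.9256, Pearson r = 0.990) and a hypothetical protein (MSTRG.2505, r = 0.988), a description over libraries that share organ and age.

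The Tret1-2 homolog, a member of the facilitated transporters that move trehalose across membranes, dipped at day 5 in both organs. In fat body the libraries held 98.2 and 115 FPKM at day 1, 19.3 and 19.2 at day 5, 158 and 143 at day 9, and 45.6 and 65.4 at day 13. In ovary they held 21.8 and 37.0 FPKM at day 1, 13.2 and 12.7 at day 5, 65.9 and 76.4 at day 9, and 82.3 and 91.3 at day 13. Neighbouring ages did not overlap within either organ, and the organs changed places at day 13, where both ovary libraries were above both fat body libraries. By mean, fat body day 9 came first and ovary day 5 last, and no neighbours in the order of the 8 groups overlapped.

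The Tret1-2 homolog fell from day 1 to day 5 by 2.41 ± 0.23 on the log2 scale in fat body (adjusted p = 0.000194) and by 1.08 ± 0.23 in ovary (adjusted p = 0.00835). These steps differed by 1.33 ± 0.33 (adjusted p = 0.0346). It then rose by 2.91 ± 0.23 in fat body (adjusted p = 4.44e-05) and 2.37 ± 0.23 in ovary (adjusted p = 2.83e-05), and the rises were not called different (-0.54 ± 0.33, adjusted p = 0.259). From day 9 to day 13 it fell in fat body (-1.45 ± 0.23, adjusted p = 0.00553) and the ovary value was 0.29 ± 0.23 (adjusted p = 0.592), and these steps differed by 1.73 ± 0.33 (adjusted p = 0.0171). Ovary was below fat body at day 1 (-1.87 ± 0.23, adjusted p = 4.65e-05) and day 9 (-1.08 ± 0.23, adjusted p = 0.00173). At day 5 the difference of -0.54 ± 0.23 was not called (adjusted p = 0.0625), and at day 13 it was 0.66 ± 0.23 (adjusted p = 0.0267).

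The higher level of the Tret1-2 homolog in ovary at day 13 depended on the scaling: with median-of-ratios scaling the difference was -0.26 (adjusted p = 0.335). It was not called either in a fit to only the groups compared, with adjusted p of 0.0161 to 0.335 over the 8 other settings. It was also lost without ovary day 13 replicate 1 (0.73), ovary day 13 replicate 2 (0.58) or fat body day 13 replicate 1 (0.40), with adjusted p of 0.00630 to 0.211 over the 16 fits without 1 library. The first ovary step was -0.71 without ovary day 1 replicate 2 and lost its call without ovary day 5 replicate 2 (-1.05), with adjusted p of 0.00141 to 0.0515. The first difference between steps was called only when the library left out was ovary day 1 replicate 2 or one of the fat body libraries of days 9 and 13, at 0.96 to 1.70 with adjusted p of 0.00386 to 0.0960. The last one was lost without ovary day 9 replicate 1, ovary day 13 replicate 2 or fat body day 9 replicate 1, at 1.48 to 1.99 with adjusted p of 0.00892 to 0.0593. A fit to only the groups compared did not call the first ovary step (adjusted p = 0.111; from 0.00608 over the 8 other settings), the last fat body step (adjusted p = 0.132; from 0.00461) or the first difference of steps (adjusted p = 0.115). Quantile normalization did not call the difference between the organs at day 9 (-0.61, adjusted p = 0.0581; from 3.73e-05) or the first (0.77) and last (1.27) differences of steps, and a pseudocount of 0.1 lost the first as well (adjusted p = 0.0637; 0.0277 to 0.240 over the 8). In the fat body the summed gut markers (66 genes) rose and fell in the same order, from 1199 and 1221 FPKM at day 5 to 3507 and 2941 at day 9 and 1207 and 2075 at day 13. Their part in the peak at day 9 was not tested.

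The gene most like the Tret1-2 homolog over the 16 libraries was a glycerol kinase-like gene (MSTRG.4878, r = 0.852), then an uncharacterized gene (MSTRG.9247, r = 0.828), the lowest likeness found for any of the 7 genes. Of the 20 tested genes whose product names trehalose, trehalase or Tret1, 11 fell in the ovary from day 1 to day 5, all of them transporters. Of all tested genes 7.42% rose and 16.3% fell in this step. The list's median was -0.95 where that of all genes was -0.10. A Tret1-like gene (MSTRG.3175) moved most (-2.09 ± 0.36, adjusted p = 0.00283). From day 5 to day 9 in the ovary 1 of the 20, the Tret1-2 homolog described above, rose and 6 fell (median -0.45; all genes -0.15), where 13.9% of all genes rose and 24.1% fell. In fat body 3 rose and 3 fell in the first step (median 0.046; all genes -0.11), where 3.8% of all genes rose and 10.7% fell. Another Tret1-2 homolog (MSTRG.7099) moved up by 1.92 ± 0.43 (adjusted p = 0.0155) in that step. Then 3 of the 20 rose and 2 fell in the second (median 0.058), against 5.53% and 5.6% of all genes. In the last step 4 fell (median -0.64; all genes -0.073), where 1.73% of all genes rose and 5.42% fell. A Tret1-like gene (MSTRG.9053) was at -1.84 ± 0.32 (adjusted p = 0.00839) in that step.

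Most of the trehalose genes were lower in ovary: 13 of 20 at day 1, 16 at day 5, 15 at day 9 and 14 at day 13, with medians of -1.06, -1.88, -2.62 and -1.85. Of all tested genes 15.4%, 16.3%, 23.7% and 21.8% were lower in ovary, and their medians were 0.63, 0.64, 0.43 and 0.51. At day 13 the 2 higher in ovary were the Tret1-2 homolog of the 7 and MSTRG.7099 (1.19 ± 0.43, adjusted p = 0.0319). A Tret1 gene (MSTRG.5601) had the largest difference at day 13 among the 20, at 2.92 and 4.18 FPKM in ovary and 462 and 545 FPKM in fat body (-6.80 ± 0.27, adjusted p = 7.12e-09). Of all tested genes changed with median-of-ratios scaling, about as many were higher in ovary as lower, with the shares given above. With median-of-ratios scaling 0 of the 20 were higher in ovary at day 13, where MSTRG.7099 was at 0.32 (adjusted p = 0.537), and 0 were without ovary day 13 replicate 1.

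**Figure D2:**
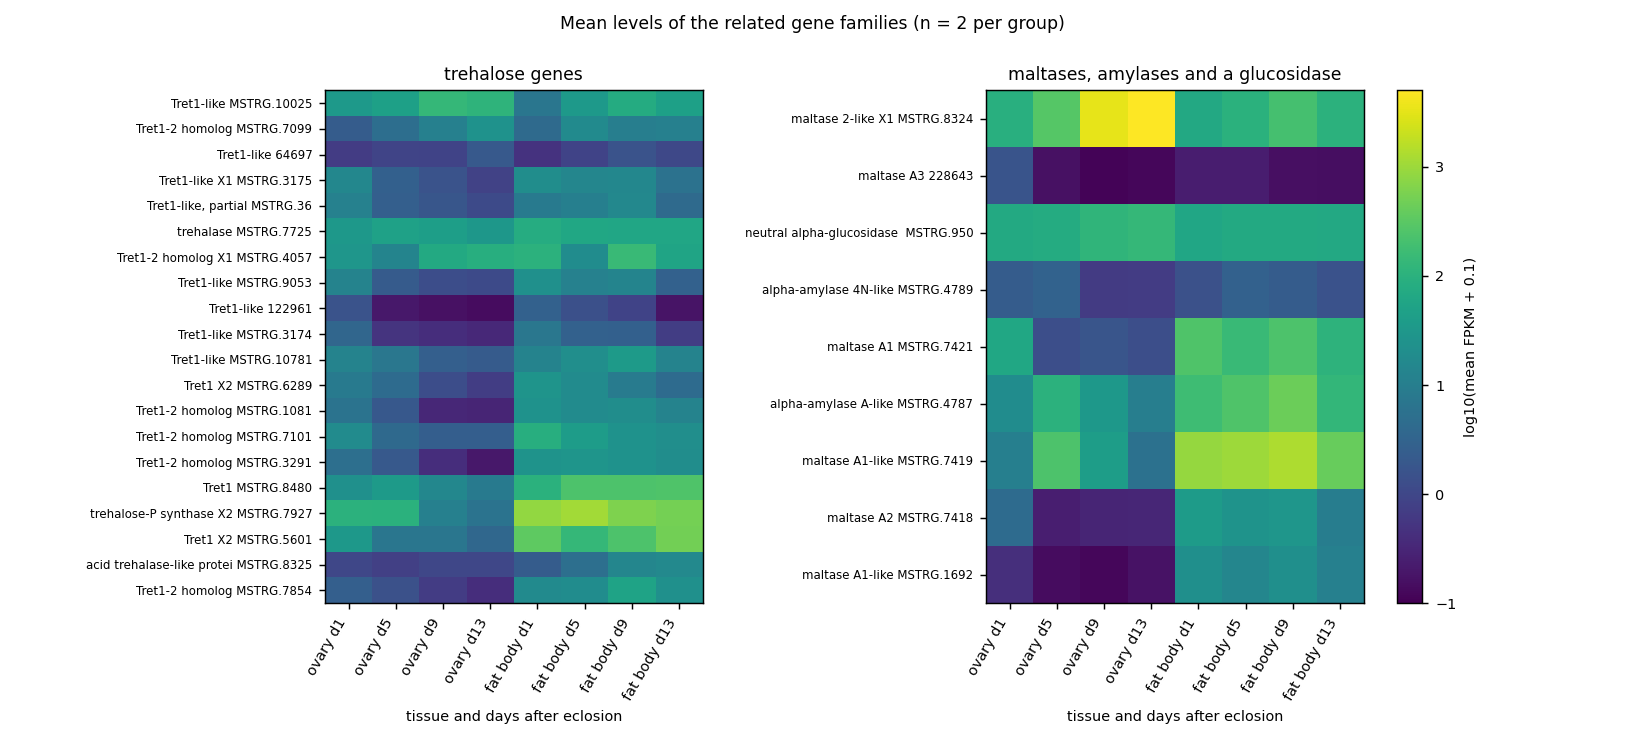
Mean FPKM of 2 libraries on a log10 scale (FPKM + 0.1) for the 20 tested trehalose genes and the 9 tested maltases, amylases and glucosidase, by tissue and day (columns); rows are ordered by the ratio of the highest ovary to the highest fat body mean. Maltase 2-like reaches 4952 FPKM in ovary at day 13, and the trehalose rows hold 1 synthase, at 528 to 1121 FPKM in fat body.

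Glycogen phosphorylase, which releases glucose 1-phosphate from glycogen, was higher in fat body than in ovary at each age and highest in fat body at day 5. Fat body libraries held 597 and 749 FPKM at day 1, 897 and 901 at day 5, 427 and 364 at day 9, and 446 and 376 at day 13. Ovary libraries held 139 and 133 FPKM at day 1, 170 and 141 at day 5, 105.6 and 105.7 at day 9, and 104 and 103 at day 13. The organs did not overlap, and the whole range within the ovary was narrower than that within the fat body. By mean the order was fat body days 5, 1, 13 and 9, then ovary days 5, 1, 9 and 13, and fat body days 13 and 9 were the only neighbours that overlapped.

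Glycogen phosphorylase differed between ovary and fat body by -2.29 ± 0.15, -2.53 ± 0.15, -1.89 ± 0.15 and -1.98 ± 0.15 at days 1, 5, 9 and 13 (adjusted p of 5.66e-07, 2.95e-07, 9.31e-07 and 5.45e-07). From day 5 to day 9 it fell in fat body (-1.19 ± 0.15, adjusted p = 0.000659) and in ovary (-0.55 ± 0.15, adjusted p = 0.0140). The steps differed by 0.64 ± 0.21 (adjusted p = 0.0453). The other steps were not called, from -0.034 to 0.43. The ovary step was lost without ovary day 5 replicate 1 (-0.41), ovary day 9 replicate 1 (-0.54) or ovary day 9 replicate 2 (-0.55), with adjusted p of 0.00887 to 0.113 over the 16 fits without 1 library. With median-of-ratios scaling it was -0.27 and with quantile normalization -0.47, neither called, with adjusted p of 0.0130 to 0.125 over the 8 other settings. The difference between the steps kept its call only when the library left out was ovary day 5 replicate 1, a fat body library of day 1 or 13, or fat body day 9 replicate 1, at 0.51 to 0.78 with adjusted p of 0.0297 to 0.146. In 5 of the 8 other settings it was lost too, with adjusted p of 0.0104 to 0.0574. The muscle and hemocyte markers given for trehalose-phosphate synthase fell over the same ovary step, and their part was not tested.

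Glycogen synthase (MSTRG.3680), which adds glucose to glycogen, had no called age step in either organ. In ovary it lay at 40.9 and 40.2 FPKM at day 1 and 87.4 and 100.3 FPKM at day 13. Phosphorylase stood at 3.39 and 3.30 times the synthase level in ovary at day 1 and at 1.19 and 1.02 times at day 13, and at 5.82 to 12.8 times in fat body. From day 1 to day 5 the synthase step was 0.53 ± 0.20 in ovary (adjusted p = 0.0852) and -0.53 ± 0.20 in fat body (adjusted p = 0.112), and the difference of these steps was called (1.06 ± 0.28, adjusted p = 0.0486), but not with median-of-ratios scaling (0.95, adjusted p = 0.0693). From day 5 to day 9 the synthase steps differed by 0.87 ± 0.28 (adjusted p = 0.0453), and by 1.02 with that scaling (adjusted p = 0.0200). The ovary step of the synthase from day 5 to day 9 was 0.35 ± 0.20 (adjusted p = 0.198). With that scaling it was 0.62 and called (adjusted p = 0.0277). Glycogen debranching enzyme (MSTRG.3354), which removes branches from glycogen, held 25.9 and 31.2 FPKM in ovary at day 5 and 89.2 and 84.0 at day 9, a rise of 1.57 ± 0.27 (adjusted p = 0.000954). It was higher in ovary than in fat body at day 9 (2.13 ± 0.27, adjusted p = 3.40e-05) and day 13 (2.75 ± 0.27, adjusted p = 4.20e-06). Glycogenin-1 (MSTRG.1144), the primer of glycogen synthesis, rose from day 1 to day 5 in ovary (0.89 ± 0.21, adjusted p = 0.0133) and fat body (0.94 ± 0.21, adjusted p = 0.0151).

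Of the 7 tested glycogen genes, 3 were higher and 3 lower in ovary at day 1, 3 and 2 at day 5, 5 and 2 at day 9, and 5 and 1 at day 13, with medians of -0.44, -0.29, 0.94 and 1.07. In the age steps, 1 rose in the ovary in the first step and 1 rose and 1 fell in the second. In fat body 1 rose and 1 fell in the first step, 2 fell in the second and 1 fell in the last. The shares of all tested genes called in each step are given above beside the counts of the 7 genes followed here. At days 1 and 5, 47.6% and 48.9% of all genes were higher in ovary and 15.4% and 16.3% lower. At days 9 and 13, 44.4% and 46% of all genes were higher in ovary and 23.7% and 21.8% lower. The 3 higher at days 1 and 5 were phosphorylase kinase subunits (MSTRG.10595, MSTRG.5128 and MSTRG.5428). With median-of-ratios scaling they were at 0.23, 0.25 and 0.16 at day 1 and 0.44, -0.17 and 0.12 at day 5, none called. Glycogenin-1, phosphorylase, debranching enzyme and synthase were all lower in ovary at both ages with that scaling. At days 9 and 13 it left 2 of the 7 glycogen genes higher and 2 lower at each age. The synthase was then at -0.16 and -0.12, neither called. Of all genes changed with that scaling, about as many were higher in ovary as lower, with the shares given above. Phosphorylase was lower in ovary at days 9 and 13 with that scaling too (-2.64 and -2.91). Its nearest patterns were an uncharacterized gene (MSTRG.2129, r = 0.982) and a takeout-like gene (MSTRG.2372, r = 0.981), and the table gave its KEGG orthology entry to no other gene.

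PEPCK-like fell from day 1 to day 5 in both organs and then rose in the fat body and not in the ovary, between days 5 and 9. Fat body libraries held 1375 and 1052 FPKM at day 1, 6.45 and 56.6 at day 5, 156 and 234 at day 9, and 204 and 310 at day 13. Ovary libraries held 156 and 458 FPKM at day 1, 1.09 and 0.975 at day 5, 0.665 and 0.440 at day 9, and 0.292 and 0.610 at day 13. The fat body libraries of days 9 and 13 lay between those of days 5 and 1 and overlapped each other, and 11 of the 16 libraries reached 1 FPKM, with none at 0. The 2 libraries of fat body day 5 differed by a factor of 8.76 and those of ovary day 1 by a factor of 2.94. By mean, fat body day 1 came first, ovary day 1 second, and fat body days 13, 9 and 5 next. Ovary day 1 overlapped fat body day 13.

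The first step of PEPCK-like was -7.05 ± 0.78 in ovary (adjusted p = 0.000279) and -5.86 ± 0.78 in fat body (adjusted p = 0.00117), and the 2 falls were not called different (-1.19 ± 1.10, adjusted p = 0.581). From day 5 to day 9 it rose in fat body (3.21 ± 0.78, adjusted p = 0.0252) with -0.39 ± 0.78 in ovary (adjusted p = 0.751), and the steps differed by -3.60 ± 1.10 (adjusted p = 0.0361). The last steps were -0.10 ± 0.78 in ovary and 0.39 ± 0.78 in fat body, neither called. Ovary was below fat body at each age, by -2.16 ± 0.78 at day 1 (adjusted p = 0.0324) and -3.35 ± 0.78 at day 5 (adjusted p = 0.00334). The difference reached -6.95 ± 0.78 at day 9 (adjusted p = 1.67e-05) and -7.45 ± 0.78 at day 13 (adjusted p = 8.80e-06). Where ovary levels are near or under 1 FPKM the added 1 makes these differences smaller than the ratio of the levels.

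The rise of PEPCK-like in fat body rested on single libraries. It was 1.74 without fat body day 5 replicate 1, 3.51 without fat body day 9 replicate 1 and 2.92 without fat body day 9 replicate 2. None of these was called, with adjusted p of 0.00113 to 0.139 over the 16 fits without 1 library. The difference between these steps was lost without any 1 of the ovary libraries of days 5, 9 and 13 or without fat body day 5 replicate 1 (-2.13) or either fat body library of day 9, with adjusted p of 0.00145 to 0.103. The difference between the organs at day 1 was lost without ovary day 1 replicate 1 (-1.39) or either fat body library of day 1 (-1.97 and -2.36), with adjusted p of 0.00198 to 0.218. The difference at day 5 was -1.88 without fat body day 5 replicate 2, still called. A fit to only the groups compared did not call the fall in fat body (adjusted p = 0.0776) or the rise after it (adjusted p = 0.191). It also did not call the difference of steps (adjusted p = 0.0815) or the difference at day 5 (adjusted p = 0.0584). Over the 8 other settings the lowest adjusted p of these 4 results was 0.00103, 0.0174, 0.0259 and 0.000828. Quantile normalization also lost the difference at day 1 (-1.78, adjusted p = 0.0520; from 0.00910 over the other settings) and the difference of steps (-2.40, adjusted p = 0.110).

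Over the first ovary step, summed muscle markers went from 3382 and 4613 to 6253 and 6592 FPKM, the fat body list from 1372 and 2132 to 3402 and 3735 FPKM. Gut markers went from 277 and 335 to 416 and 533 FPKM. Hemocyte markers went from 240 and 272 to 218 and 229 FPKM. In fat body the muscle sum went from 6389 and 6693 FPKM at day 1 to 17827 and 17477 at day 5. The part of these marker sums in the fall of PEPCK-like in either organ was not tested. An uncharacterized gene (MSTRG.8407, r = 0.975) and cathepsin B (MSTRG.7547, r = 0.966), a lysosomal protease, had the most similar pattern. Of the other tested genes of gluconeogenesis, MSTRG.1363 was higher in ovary from day 5. The table gives this gene a joint product name, fructose-1,6-bisphosphatase 1, which removes a phosphate on the way to glucose, and a putative nuclease HARBI1, and the FPKM does not separate them. The differences at days 5, 9 and 13 were 1.27 ± 0.34, 1.28 ± 0.34 and 1.55 ± 0.34 (adjusted p of 0.00791, 0.00699 and 0.00213). With median-of-ratios scaling they were 0.48, 0.60 and 0.70, none called. The list had 3 tested genes, and 2 were lower in ovary at day 1, 2 lower and 1 higher at day 5, and 1 each way at days 9 and 13. In its age steps PEPCK-like was the one gene called. The medians of the 3 for the organs were -1.24, -0.93, -0.096 and -0.31. Among all tested genes, 47.6%, 48.9%, 44.4% and 46% were higher in ovary at the successive ages, and 15.4%, 16.3%, 23.7% and 21.8% were lower.

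**Figure D3:**
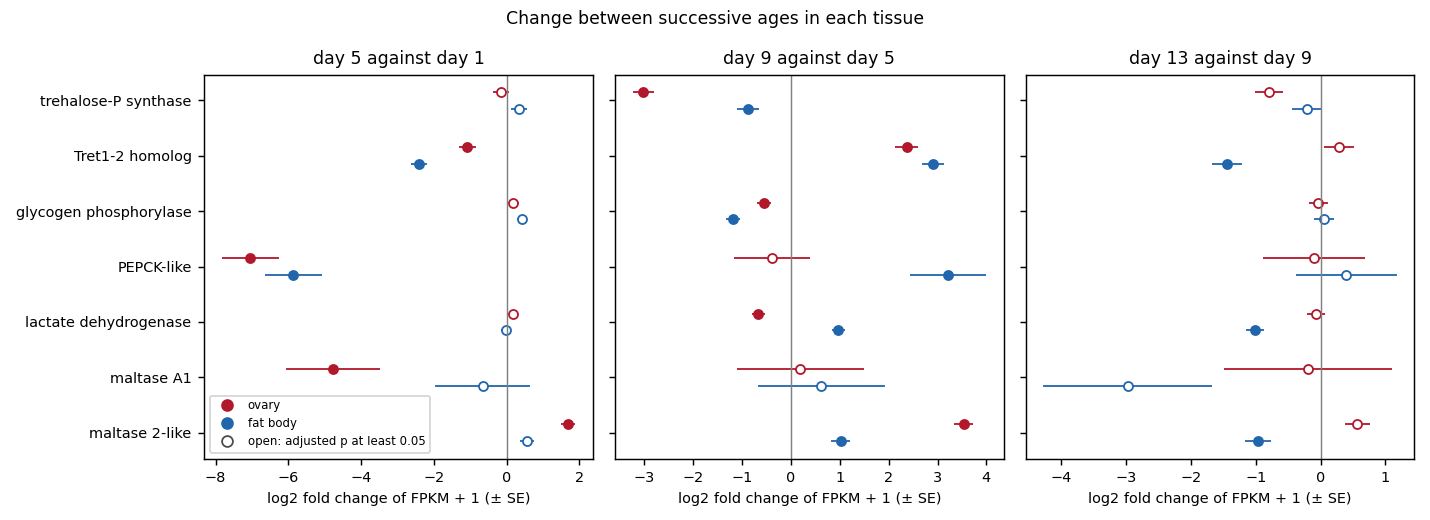
Log2 fold change of FPKM + 1 (± SE) between successive ages for the 7 genes, ovary in red and fat body in blue; filled points have an adjusted p under 0.05 and open points do not. The panels have their own scales, from -7.05 for PEPCK-like in ovary in the first step to 3.53 for maltase 2-like in ovary in the second, and lactate dehydrogenase goes opposite ways in the organs between days 5 and 9.

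Lactate dehydrogenase kept the narrowest range of the 7 genes and moved opposite ways in the organs between days 5 and 9. Fat body libraries held 66.7 and 61.3 FPKM at day 1, 63.0 and 63.3 at day 5, 116 and 134 at day 9, and 62.8 and 59.9 at day 13. Ovary libraries held 66.3 and 54.5 FPKM at day 1, 71.3 and 64.7 at day 5, 47.3 and 38.2 at day 9, and 42.0 and 39.0 at day 13. Fat body day 9 stood above each other library, the late ovary libraries (days 9 and 13) lay below the rest, and the other 5 groups lay between 54.5 and 71.3 FPKM. In the order by mean, ovary day 5 overlapped fat body day 1, fat body day 1 overlapped fat body day 5, and fat body day 13 overlapped ovary day 1.

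In fat body lactate dehydrogenase rose by 0.97 ± 0.14 from day 5 to day 9 (adjusted p = 0.00143) and fell by 1.01 ± 0.14 from day 9 to day 13 (adjusted p = 0.00276). In ovary it fell by 0.66 ± 0.14 from day 5 to day 9 (adjusted p = 0.00351) and the last step was -0.068 ± 0.14 (adjusted p = 0.918). The steps of the organs differed by -1.64 ± 0.20 from day 5 to day 9 (adjusted p = 0.000279) and by 0.95 ± 0.20 from day 9 to day 13 (adjusted p = 0.0246). Ovary and fat body differed by -1.53 ± 0.14 at day 9 (adjusted p = 2.93e-06) and by -0.59 ± 0.14 at day 13 (adjusted p = 0.00313). No difference was called at day 1 (-0.088 ± 0.14) or day 5 (0.10 ± 0.14).

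With median-of-ratios scaling lactate dehydrogenase was lower in ovary at day 1 too (-0.88, adjusted p = 0.000810, where the 8 other settings ran to 0.968), and the day 5 difference changed sign (-0.79, adjusted p = 0.00157, where they ran to 0.591). The same scaling moved the ovary step from day 5 to day 9 to -0.39 (adjusted p = 0.0705; from 0.00169 over the other settings). The fall in fat body was lost in a fit to only the groups compared (adjusted p = 0.132; from 0.00245). The last difference of steps was lost without ovary day 9 replicate 2, fat body day 9 replicate 2 or any 1 library of day 13, at 0.80 to 1.10 with adjusted p of 0.0202 to 0.0899 over the 16 fits without 1 library. Median-of-ratios scaling, quantile normalization and the fit to only the groups compared lost it as well (0.42 to 0.95, adjusted p to 0.317). Muscle markers fell over the ovary step and gut markers peaked in fat body at day 9, with the values given above, and their part was not tested.

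The genes most like lactate dehydrogenase were a caspase-3-like gene (MSTRG.5640, r = 0.946), a protease of the cell death pathway, and ninjurin-1 (MSTRG.5067, r = 0.920). Of the 19 tested genes of glycolysis and lactate, 6 were higher and 6 lower in ovary at day 1, 5 and 4 at day 5, 4 and 7 at day 9, and 5 and 5 at day 13. The medians were -0.088, 0.10, -0.12 and 0.043. Among all tested genes, 47.6%, 48.9%, 44.4% and 46% were higher in ovary at the successive ages, and 15.4%, 16.3%, 23.7% and 21.8% were lower. With median-of-ratios scaling, which left 16 of the 19 above the filter, 1 was higher and 9 lower at day 1, 2 and 9 at day 5, 3 and 11 at day 9, and 2 and 9 at day 13. The shares of all genes just given are without that scaling. With it, about as many of all changed genes were higher in ovary as lower, as given above beside the 7 genes. Hexokinases phosphorylate glucose on entry. Hexokinase-2-like (MSTRG.4743) held 29.0 and 23.8 FPKM in ovary and 0.0935 and 0.0667 FPKM in fat body at day 13 (4.66 ± 0.23, adjusted p = 3.14e-08). Hexokinase type 2 (MSTRG.2573) was listed at 0 and 2.77 FPKM in ovary and at 151 and 137 FPKM in fat body at the same age (-6.22 ± 0.97, adjusted p = 0.000181). A further gene named hexokinase type 2 (MSTRG.3571), named after its values were seen, held 58.3 and 62.9 FPKM in ovary and 46.7 and 43.2 FPKM in fat body at day 13, a difference that was not called (0.42 ± 1.00, adjusted p = 0.747). In the age steps, 1 rose and 4 fell in ovary from day 1 to day 5 and 1 rose and 1 fell from day 5 to day 9. In fat body 2 fell in the first step, and lactate dehydrogenase was the one gene called in each later step. The shares of all tested genes called in these steps are given above beside the counts of the 7 genes. Phosphoglycerate mutase 2-like (MSTRG.5615) had the largest fall among the called genes of the list in the first step of both organs (-1.09 ± 0.24 in ovary, adjusted p = 0.00904, and -2.17 ± 0.24 in fat body, adjusted p = 0.000374).

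The 2 maltases, alpha-glucosidases that cut glucose from maltose and sucrose, lay on opposite sides of the organs. Maltase 2-like libraries in ovary held 110 and 70.8 FPKM at day 1, 261 and 318 at day 5, 3279 and 3414 at day 9, and 5079 and 4825 at day 13. In fat body they held 72.6 and 64.4 FPKM at day 1, 93.8 and 109 at day 5, 225 and 189 at day 9, and 101 and 109 at day 13. At day 1 the organs overlapped. From day 5 on each ovary library was above each fat body library. At day 13 maltase 2-like had the highest FPKM of all 13759 genes in both ovary libraries, with 1.70% and 1.66% of the summed FPKM, and it stood at rank 431 and 690 in those of day 1. By mean, ovary days 13, 9 and 5 came first, then fat body day 9, and the last 4 groups overlapped one after another.

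Maltase 2-like rose in ovary by 1.70 ± 0.19 from day 1 to day 5 (adjusted p = 0.000329) and by 3.53 ± 0.19 from day 5 to day 9 (adjusted p = 9.78e-07). The last ovary step was 0.57 ± 0.19 (adjusted p = 0.141). It was 0.95 and called with quantile normalization (adjusted p = 0.0404; to 0.217 over the 8 other settings). In fat body it rose by 1.02 ± 0.19 from day 5 to day 9 (adjusted p = 0.00697) and fell by 0.97 ± 0.19 from day 9 to day 13 (adjusted p = 0.0148). The first fat body step was 0.56 ± 0.19 (adjusted p = 0.0871). The ovary steps exceeded the fat body steps by 1.14 ± 0.28 (adjusted p = 0.0327), 2.51 ± 0.28 (adjusted p = 0.000183) and 1.53 ± 0.28 (adjusted p = 0.0147). Ovary against fat body grew from 0.36 ± 0.19 at day 1 (adjusted p = 0.127) to 1.50 ± 0.19 at day 5 (adjusted p = 6.15e-05). It was 4.01 ± 0.19 at day 9 (adjusted p = 4.31e-08) and 5.54 ± 0.19 at day 13 (adjusted p = 4.16e-09), the last a 46.7-fold difference of FPKM + 1. The day 1 difference was -0.43 with median-of-ratios scaling.

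The fat body rise of maltase 2-like was lost without fat body day 5 replicate 1 (0.92), with adjusted p of 0.00175 to 0.0681 over the 16 fits without 1 library. The fall that followed was lost without fat body day 9 replicate 1 (-0.84), day 13 replicate 1 (-0.91) or day 13 replicate 2 (-1.02), with adjusted p of 0.00462 to 0.0863. Both were lost with quantile normalization (0.66 and -0.56) and in a fit to only the groups compared, which also lost the first ovary step (adjusted p = 0.0591). The first difference of steps was lost without ovary day 5 replicate 2, any 1 ovary library of days 9 and 13, fat body day 1 replicate 1 or either fat body library of day 5, at 0.82 to 1.45 with adjusted p of 0.00441 to 0.112. A pseudocount of 0.1 (1.14), median-of-ratios scaling (1.03) and the fit to only the groups compared also lost it, with adjusted p of 0.0284 to 0.148 over the 8 other settings. The last was lost without ovary day 13 replicate 1 (1.49), at 1.41 to 1.65 over the 16 fits with adjusted p of 0.00648 to 0.0505.

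Protein wech (MSTRG.8114, r = 0.994) and an aldose 1-epimerase-like gene (MSTRG.1779, r = 0.990), the latter an enzyme that interconverts forms of glucose, had the pattern most like that of maltase 2-like. Germline markers in ovary ran from 420 and 527 FPKM at day 1 to 771 and 780 at day 13. The share of germline cells in the rise of maltase 2-like was not tested. Over the 16 libraries the log2 levels of maltase 2-like and trehalose-phosphate synthase had a Pearson r of -0.906, and those of the synthase and glycogen phosphorylase one of 0.920. The libraries share organ and age, so these values describe the groups and carry no test.

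Maltase A1 lay higher in the fat body libraries than in the ovary libraries from day 5 on, and within the ovary it was highest at day 1. Fat body libraries had 193 and 309 FPKM at day 1, 135 and 177 at day 5, 221 and 258 at day 9, and 3.32 and 214 at day 13. Ovary libraries had 77.7 and 46.4 FPKM at day 1, 1.56 and 0.951 at day 5, 2.39 and 0.914 at day 9, and 1.10 and 1.37 at day 13. The ovary libraries from day 5 on lay below each fat body library, fat body day 13 replicate 1 included. The 2 libraries of fat body day 13 differed by a factor of 64.4, so this group's mean of 109 ± 149 FPKM (SD, n = 2) describes neither. By mean the 4 fat body groups came first and then ovary day 1. The late ovary groups (days 5 to 13) overlapped one another, and fat body day 13 overlapped fat body day 5 and ovary day 1.

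Fat body day 13 replicate 1 was low for related genes as well, which were singled out after their values were seen. In replicates 1 and 2 of that group a maltase A1-like gene (MSTRG.7419) held 14.6 and 782 FPKM and maltase A2 (MSTRG.7418) held 0.657 and 18.9 FPKM. A second maltase A1-like gene (MSTRG.1692) held 0.0947 and 22.4 FPKM and an uncharacterized family 31 glucosidase (MSTRG.8630) held 2.24 and 95.6 FPKM. An alpha-amylase A-like gene (MSTRG.4787), of an enzyme that cuts starch, held 29.9 and 227 FPKM. Maltase 2-like showed no such gap in these libraries, at 101 and 109 FPKM. Summed gut markers, a list that holds the alpha-amylases, were at 1207 and 2075 FPKM, and among them a trypsin theta-like gene (MSTRG.9241) was at 105 and 256 FPKM and a chymotrypsin-like protease (MSTRG.10276) at 106 and 118 FPKM. In Drosophila melanogaster the maltase A genes and amylase are active in the midgut. Whether gut tissue differed between these samples was not tested. A gap in only some of these genes lay in ovary day 5, and it too was picked out after the values were seen. There replicates 1 and 2 held 6.82 and 485 FPKM of MSTRG.7419 and 14.6 and 191 FPKM of MSTRG.4787. Maltase A1 held 1.56 and 0.951 FPKM, MSTRG.7418 0.107 and 0.193, MSTRG.1692 0.0466 and 0.0438, and MSTRG.8630 0.662 and 1.29. The cause of that gap was not tested.

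Maltase A1 in ovary was -4.77 ± 1.3 from day 1 to day 5 (adjusted p = 0.0252), and its other 2 ovary steps were 0.19 ± 1.3 and -0.19 ± 1.3. That fall was lost without any 1 of its 4 libraries, at -5.14 to -4.41 with adjusted p of 0.0622 to 0.116 in those fits and as low as 8.36e-05 over the 16 fits. Fat body steps were -0.66 ± 1.3, 0.63 ± 1.3 and -2.98 ± 1.3 (adjusted p = 0.231), and the last was -5.79 (adjusted p = 0.000186) without fat body day 13 replicate 2 and -0.16 without replicate 1, with adjusted p to 0.968. Ovary against fat body was -2.01 ± 1.3 at day 1 (adjusted p = 0.204) and -6.12 ± 1.3 at day 5 (adjusted p = 0.00192). It was -6.56 ± 1.3 at day 9 (adjusted p = 0.00106) and -3.77 ± 1.3 at day 13 (adjusted p = 0.0246). The day 13 difference was -6.59 without fat body day 13 replicate 1 and -0.96 without fat body day 13 replicate 2. It was -3.69 without ovary day 13 replicate 1 and -3.86 without ovary day 13 replicate 2. The last 3 values were not called, and adjusted p ran from 9.52e-07 to 0.0832. The gap between the 2 fat body libraries of day 13 also enters the SE of the gene in the shared fit. Without either of these libraries the day 1 difference of -2.01 was called. A fit to only the groups compared called it too (adjusted p = 0.0174) and did not call the day 13 difference (adjusted p = 0.187), with ranges over the 8 other settings to 0.236 and from 0.0124. No age step of maltase A1 was called different between the organs, at -4.11 ± 1.84, -0.44 ± 1.84 and 2.78 ± 1.84 (adjusted p of 0.215, 0.894 and 0.453).

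Maltase A1 was most like an uncharacterized gene (MSTRG.2996, r = 0.991) and a gene named cell wall protein IFF6-like (MSTRG.2995, r = 0.984). The table gave both maltases the same KEGG orthology entry, which it gave to 14 genes, 11 of them tested. Among all tested genes, 47.6%, 48.9%, 44.4% and 46% were higher in ovary at the successive ages, and 15.4%, 16.3%, 23.7% and 21.8% were lower. Their shares in the age steps are given above beside the counts of the 7 genes. Of the 9 tested maltases, amylases and alpha-glucosidases, 4 were lower in ovary at day 1, 1 was higher and 3 lower at day 5, 2 were higher and 6 lower at day 9, and 2 were higher and 3 lower at day 13. Their medians were -2.01, -2.20, -3.77 and -2.24. At day 13, 6 were lower without fat body day 13 replicate 1 and 0 were without replicate 2, with medians of -4.03 and -0.38. In the ovary 1 rose and 1 fell in the first step, both of them among the 7 genes, and 2 rose and 1 fell in the second, the fall that of an alpha-amylase 4N-like gene (MSTRG.4789, -1.32 ± 0.29, adjusted p = 0.00490). In fat body maltase 2-like was the one gene of the list called after day 5, up in the second step and down in the last, where the list's median was -2.17. Without fat body day 13 replicate 1 that median was -0.16 and 0 of the 9 were called, and without replicate 2 it was -3.81 and 3 were lower. The ratio of maltase 2-like to maltase A1 went from 1.42 and 1.53 in the ovary libraries of day 1 to 4618 and 3530 in those of day 13. In fat body the ratio ran from 0.209 to 1.02 apart from 30.5 in day 13 replicate 1.

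**Figure D4:**
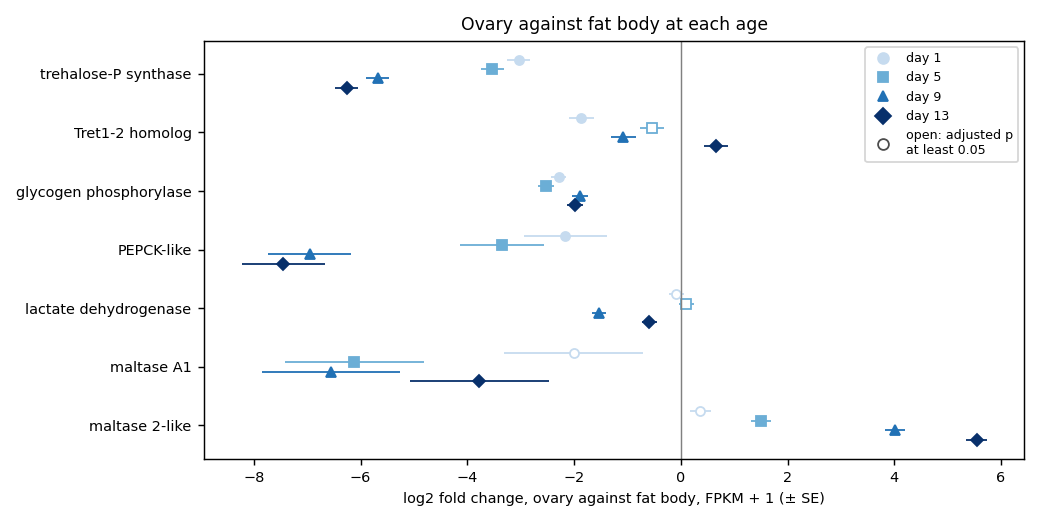
Log2 fold change of FPKM + 1 (± SE), ovary against fat body, for the 7 genes at days 1, 5, 9 and 13 (light to dark); filled symbols have an adjusted p under 0.05. Trehalose-phosphate synthase moves from -3.04 to -6.26 and maltase 2-like from 0.36 to 5.54, and glycogen phosphorylase stays between -2.53 and -1.89.

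The pentose phosphate genes, which take glucose 6-phosphate to NADPH and ribose, were set beside these pathways as another use of the same sugar. Among all tested genes, 47.6%, 48.9%, 44.4% and 46% were higher in ovary at the successive ages, and 15.4%, 16.3%, 23.7% and 21.8% were lower. Of the 8 tested pentose phosphate genes 3 were lower in ovary at day 1, 1 higher and 4 lower at day 5, and 3 higher and 2 lower at days 9 and 13 each, with medians of -0.87, -0.59, 0.14 and 0.095. With median-of-ratios scaling 7 were lower at day 1, 5 at day 5, 3 at day 9 and 4 at day 13, and 1 was higher, at day 13. The shares of all genes just given are without that scaling. With it, about as many of all changed genes were higher in ovary as lower, as given above beside the 7 genes. Glucose-6-phosphate 1-dehydrogenase (MSTRG.10539), the entry enzyme, was lower in ovary at day 1 (-3.24 ± 0.85, adjusted p = 0.00684), day 5 (-2.13 ± 0.85, adjusted p = 0.0478) and day 13 (-2.62 ± 0.85, adjusted p = 0.0187). Transketolase-like protein 2 (MSTRG.8281) was higher in ovary at day 9 (1.16 ± 0.27, adjusted p = 0.00307) and day 13 (1.80 ± 0.27, adjusted p = 0.000146), the former not called with that scaling (0.52). It held 12.9 and 16.7 FPKM in ovary at day 13. Another gene of that name (MSTRG.2035), added after its values were seen, held 367 and 361 FPKM in ovary and 311 and 304 FPKM in fat body at day 13. Its difference was 0.24, and -0.69 with that scaling (adjusted p = 0.397). In the age steps, 6-phosphogluconate dehydrogenase (MSTRG.4503) rose in ovary from day 5 to day 9 (0.73 ± 0.17, adjusted p = 0.00551) and ribose-5-phosphate isomerase (MSTRG.9130) fell (-0.82 ± 0.19, adjusted p = 0.00645), the latter not called with that scaling (-0.56). Over the last ovary step limma called 0 of the 66 genes of the 6 lists, where 1.63% of all tested genes rose and 2.59% fell. Of the 66, 10 had an unadjusted p under 0.05 in limma, and the share of all genes at that cutoff is not given here.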

How the data were processed

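The authors deposited 1 table of FPKM per gene, with 1 column for each of the 16 libraries and 0 columns of other samples. Per the submitters' processing notes, HISAT2 2.0, StringTie 1.3.0 and Bowtie 0.12.2 were used, with no step stated for any of them. The same notes name the mouse build mm8, which cannot be the fly's, so no positions or sequences are given. Genes were named by the table's product column and identifier.

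FPKM was analysed as log2(FPKM + 1) as deposited. A gene was fitted if its mean reached 1 FPKM in any of the 8 groups, using limma 3.58.1 (R 4.3.3; variance trend, robust moderation, 1 coefficient per group), which was tested on simulated data, and 13 comparisons were made. Depth is unknown, so no counting interval is given. The p-values rest on the spread between the 2 libraries of a group, pooled over all 8 groups and moderated across genes. A comparison thus also draws on groups that it does not compare, except in the fits to only the groups compared. Marker and pathway lists came from patterns in product names. In each list and comparison the called gene with the largest change in each direction could be named, and for each of the 7 genes the 2 genes with the highest Pearson r over the 16 libraries. The 7 genes, the lists and the rule were chosen with earlier results of these data known. The other settings were no filter on low values, a filter at 5 FPKM, a pseudocount of 0.1, median-of-ratios scaling, quantile normalization, only the groups compared, no trend or robust moderation, a replicate block, and each library left out. For the pathway lists these settings were added after the data were seen. Tables and plots used matplotlib 3.10.9, numpy 2.4.6, pandas 2.3.3 and Python 3.11.15.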

Additional observations from a re-analysis of the deposited data

Results flagged for a closer look

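A set of 10 age steps differed between ovary and fat body by a test of the difference itself, an interaction in limma with adjustment over all tested genes, and each value is the ovary step minus the fat body step on the log2 scale. From day 1 to day 5 the Tret1-2 homolog (MSTRG.4057) differed by 1.33 ± 0.33 (adjusted p = 0.0346) and maltase 2-like (MSTRG.8324) by 1.14 ± 0.28 (adjusted p = 0.0327). From day 5 to day 9 PEPCK-like (MSTRG.1223) differed by -3.60 ± 1.10 (adjusted p = 0.0361), trehalose-phosphate synthase (MSTRG.7927) by -2.15 ± 0.31 (adjusted p = 0.000811) and glycogen phosphorylase (MSTRG.2622) by 0.64 ± 0.21 (adjusted p = 0.0453). Over the same step lactate dehydrogenase (MSTRG.10109) differed by -1.64 ± 0.20 (adjusted p = 0.000279) and maltase 2-like by 2.51 ± 0.28 (adjusted p = 0.000183). From day 9 to day 13 the Tret1-2 homolog differed by 1.73 ± 0.33 (adjusted p = 0.0171), lactate dehydrogenase by 0.95 ± 0.20 (adjusted p = 0.0246) and maltase 2-like by 1.53 ± 0.28 (adjusted p = 0.0147).

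In these tests, lactate dehydrogenase between days 5 and 9 was the one case in which both organs' own steps were called and went opposite ways, although with median-of-ratios scaling the ovary step of -0.39 was not called. The differences for trehalose-phosphate synthase, lactate dehydrogenase and maltase 2-like between days 5 and 9 kept their direction and call with any 1 library left out and under the 8 other settings.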

How the results depend on the processing

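Of 53 called values among 91 (7 genes in 13 comparisons), 29 kept direction and call in each alternative run and 24 did not. In fits to only the groups compared, the genes called went from 4 to 2 in the first ovary step, from 2 to 1, 6 to 3 and 3 to 0 in the fat body steps, and from 2 to 1 and 5 to 3 in the first and second differences of steps. In the limma fit over all groups, 4 of the 7 genes had an unadjusted p under 0.05 in the last fat body step. Median-of-ratios scaling gave 3 in place of 5 in the second ovary step, 4 in place of 2 in the first fat body step and 1 in the first difference of steps. Quantile normalization gave 1 in place of 0 in the last ovary step, 1 in the first difference of steps and 1 in the last, and a pseudocount of 0.1 gave 0 in the first. With 1 library left out the counts ran from 2 to 4 in the first ovary step, 3 to 6 in the second fat body step, and 0 to 3, 3 to 5 and 1 to 3 in the differences of steps.

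Signs changed with median-of-ratios scaling for lactate dehydrogenase in the first fat body step (0.18) and in ovary against fat body at day 5 (-0.79), for maltase 2-like at day 1 (-0.43) and the Tret1-2 homolog at day 13 (-0.26). With quantile normalization they changed for PEPCK-like in the last 2 ovary steps (0.18 and 0.056), maltase A1 in the last ovary step (0.060) and the second difference of steps (0.36), lactate dehydrogenase in the first fat body step (0.13) and at day 1 (0.0095), trehalose-phosphate synthase in the last fat body step (0.22) and the Tret1-2 homolog in the second difference of steps (0.59). The cause was not tested. With 1 library left out, uncalled values crossed 0 for trehalose-phosphate synthase in the first ovary step (-0.45 to 0.17), maltase A1 in the second (-0.23 to 0.60) and last (-0.60 to 0.22), PEPCK-like (-0.26 to 0.056) and lactate dehydrogenase (-0.22 to 0.083) in the last ovary step, lactate dehydrogenase in the first fat body step (-0.078 to 0.041) and at day 1 (-0.23 to 0.051), and glycogen phosphorylase in the last fat body step (-0.069 to 0.18). The same held for differences of steps of PEPCK-like in the first (-2.66 to 0.29) and of glycogen phosphorylase (-0.21 to 0.036) and maltase A1 (-0.034 to 5.60) in the last.

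Deviations between replicates 1 and 2 were little shared between groups: over 28 pairs of groups their correlation ran from -0.149 to 0.146, with 1 over 0.1. This cannot show whether ovary and fat body of the same replicate number came from the same females. A replicate block left the counts of genes called within 1.5 times, gained the Tret1-2 homolog at day 5 (-0.54, adjusted p = 0.0411) and lost the second difference of steps of glycogen phosphorylase (0.64, adjusted p = 0.0554). Over all genes, fits to only the groups compared called 359 in place of 2426, 4 in place of 431, 137 in place of 1484, 566 in place of 1137 and 1 in place of 731 in the age steps, with 4116 against 3881 in the second ovary step, and 151 in place of 813 and 311 in place of 562 in the first and last differences of steps. With 1 library left out, the lowest counts of all genes called were 1193, 2812 and 156 in the ovary steps and 617, 568 and 400 in the fat body steps. A pseudocount of 0.1 called 291 in place of 813 in the first difference of steps, and no trend or robust moderation, no filter and a filter at 5 FPKM left the counts of the 7 genes within 1.5 times. With 2 libraries a group and unknown depth, levels near 1 FPKM and single-library gaps limit what these data can show.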
